A study of Drosophila melanogaster with 2 samples.

Results

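The strongest promoter peaks of single genes in a Dorsal chromatin immunoprecipitation were 343 regions at 310 protein-coding genes. They were taken from the authors' thresholded list of 2718 regions in the genome build dm6, of which 2690 lay on chromosome arms. A region was included when its signal was in the highest 25% of the arm regions, at or above 183.4, and its summit lay within 500 bp of a start site of 1 coding gene and within 1000 bp of no start site of another. Of the 1159 arm regions with such a summit position, 816 fell below the signal threshold and are called the weaker promoter peaks here. A further 330 arm regions reached the threshold without meeting the position rule, because they lay farther from coding start sites or near those of several genes. Signal, position near a start site and the single gene are therefore properties of the selection and not results.

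Chromatin was prepared from whole Drosophila melanogaster larvae, males and females pooled, in the wandering phase of the third instar, when larvae have left the food and approach pupariation. The strain, dl-small-GFP, carried a transgene in which GFP was joined to the C-terminal end of the dl-RC form of Dorsal (dl), and no group without the transgene was analysed here. The labels give a GFP antibody for the precipitation, whereas an antibody field names dl. All samples formed 1 group, of 2 biological replicates that the labels number 3 and 1, with sonicated fragments of 175 to 275 bp and 200 to 275 bp. Whole larvae mix all tissues, so a peak cannot be assigned to a cell type, and the labels give neither the number of larvae nor their age. Regions had also been called on each ChIP alignment alone. These lists, A with 30000 regions and B with 29999, could not be tied to replicate numbers.

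Dorsal belongs to the NF-kB family. It is held in the cytoplasm by Cactus until the Toll receptor is activated, then enters the nucleus, where it sets up dorsoventral pattern in the embryo and later takes part in the immune response of the fat body and blood cells. Promoters of many developmentally regulated fly genes hold runs of alternating G and A, bound by GAGA factor (encoded by Trl) and by CLAMP, among others, and associated with open chromatin.

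Of the elements searched around the summits, the GA run was the most frequent. Windows of 101 bases centred on the summit are shown for the 10 strongest of these peaks that overlapped no annotated exon and lay outside an arm whose sequence is not shown, each 5′ to 3′ on the strand of its gene, from the release 6 reference assembly. Capitals mark every GAGAG and its reverse complement CTCTC. The genes are mura, a RING-type ubiquitin ligase (chr3R:9550815-9550915), rhea, which encodes talin (chr3L:8546529-8546629), sd, the TEAD factor of the Hippo pathway (chrX:15811809-15811909), tkv, a type I receptor for Dpp (chr2L:5237369-5237469), ps, an RNA-binding splicing regulator (chr3R:9428394-9428494 and chr3R:9419398-9419498), and IP3K1, an inositol trisphosphate kinase (chr2L:9782210-9782310). The others are Mrp4, an ABC transporter (chr3R:11569092-11569192), CG13917 (chr3L:1586558-1586658) and jim, a zinc finger gene (chr3L:22824872-22824972).
mura: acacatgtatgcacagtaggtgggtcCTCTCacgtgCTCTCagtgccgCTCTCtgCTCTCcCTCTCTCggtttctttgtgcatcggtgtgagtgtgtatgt
rhea: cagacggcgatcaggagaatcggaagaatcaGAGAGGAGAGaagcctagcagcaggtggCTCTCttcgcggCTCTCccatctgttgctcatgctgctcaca
sd: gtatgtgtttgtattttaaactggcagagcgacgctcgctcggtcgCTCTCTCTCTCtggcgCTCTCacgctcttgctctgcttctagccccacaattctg
tkv: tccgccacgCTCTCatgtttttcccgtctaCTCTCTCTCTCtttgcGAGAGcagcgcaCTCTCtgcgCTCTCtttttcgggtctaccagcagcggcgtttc
ps: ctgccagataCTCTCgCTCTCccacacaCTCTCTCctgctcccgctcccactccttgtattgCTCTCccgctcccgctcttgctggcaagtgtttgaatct
Mrp4: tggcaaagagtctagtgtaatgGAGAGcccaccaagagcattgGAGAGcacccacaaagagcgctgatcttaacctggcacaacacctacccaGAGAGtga
ps, second peak: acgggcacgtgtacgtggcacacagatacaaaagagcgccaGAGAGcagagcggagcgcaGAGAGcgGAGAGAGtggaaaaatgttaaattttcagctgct
IP3K1: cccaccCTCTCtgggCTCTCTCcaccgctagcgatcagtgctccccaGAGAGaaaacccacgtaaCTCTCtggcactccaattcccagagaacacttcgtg
CG13917: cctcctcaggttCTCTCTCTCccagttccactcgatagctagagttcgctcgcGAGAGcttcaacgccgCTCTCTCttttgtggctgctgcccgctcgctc
jim: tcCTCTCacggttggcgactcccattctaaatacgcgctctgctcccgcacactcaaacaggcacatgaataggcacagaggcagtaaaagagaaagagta

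The runs varied widely between these windows. In 101 bases, the capitals cover 31 at tkv, 27 at mura, 22 and 17 at the peaks of ps, 22 at IP3K1, 21 at CG13917, 20 at rhea, 16 at sd and 15 at Mrp4, but only 5 at jim, which holds a single CTCTC far from the summit. The run at rhea is broken by a repeated G, so rhea holds GAGAG and not the longer GAGAGAG.

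For contrast, the next windows are the strongest 3 of the 18 peaks with no GAGAG within 100 bp of the summit that met the same limits on exons and arms. They belong to CG10555 (chrX:8398644-8398744), to Nepl8, named as a neprilysin-like peptidase (chr2L:16487709-16487809), and to zormin, a large muscle protein of the titin-like kind (chr3L:2151740-2151840). These windows were chosen after the matches were known. They carry no capitals because they hold no match.
CG10555: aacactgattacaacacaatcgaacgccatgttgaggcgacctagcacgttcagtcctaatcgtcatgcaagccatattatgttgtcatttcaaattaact
Nepl8: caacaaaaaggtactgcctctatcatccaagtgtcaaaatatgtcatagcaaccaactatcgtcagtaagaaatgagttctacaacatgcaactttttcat
zormin: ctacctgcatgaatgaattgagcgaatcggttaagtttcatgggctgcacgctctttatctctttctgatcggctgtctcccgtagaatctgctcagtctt

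The strongest promoter peak belonged to shot, which encodes a spectraplakin that joins actin to microtubules (2R 13925490 to 13925720, summit 96 bp upstream of the start site). Signal is the authors' value for enrichment of each region, whose scale is not stated, and it was not normalised between lists. For shot it was 1618 in the pooled list, 709.0 in list A and 1008 in list B, where the peak ranked 11 and 6. At mura (3R 9550763 to 9550955) the summit lay 473 bp downstream of the start site, and the signals were 1161, 657.5 and 545.4 in the same order. Both lists therefore placed these peaks near their top.

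Smg5, which acts in nonsense-mediated mRNA decay (2L 13904383 to 13904705, 54 bp upstream), had signals of 1118 in the pooled list, 162.2 in list A and 963.9 in list B. Its rank was 7 in list B and 199 in list A. GstE12, a glutathione transferase (2R 24768176 to 24768372), had 972.7, 524.0 and 486.4, and rhea (3L 8546488 to 8546672) had 931.0, 436.9 and 496.4. These values place both lists close together. CG31522 is a fatty acid elongase by annotation (3R 4453295 to 4453487), with 916.6, 414.7 and 526.1.

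The other peaks among the strongest 25 had pooled signals of 657.1 to 850.0. They included Zasp52, a protein of the muscle Z disc (850.0), the corepressor gene sbb (832.3), sd (780.2) and tkv (765.5). Further ones were ps, with 2 peaks (763.6 and 744.3), the ABC transporter gene Mrp4 (744.7), ush, a partner of GATA factors (743.7), and the cyclic nucleotide phosphodiesterase gene Pde8 (727.0). The rest were gus, an adaptor of a ubiquitin ligase (725.2), yuri (714.6), the integrin subunit gene scb (683.0), IP3K1 (681.5), the filamin gene jbug (676.7), CG8617 (666.3), CG13917 (660.5), the zinc finger gene jim (659.7), CG1806 (659.2) and the forkhead gene CHES-1-like (657.1). Cytoskeletal and adhesion proteins, transcriptional regulators and receptors were all represented at the top.

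**Figure D1:**
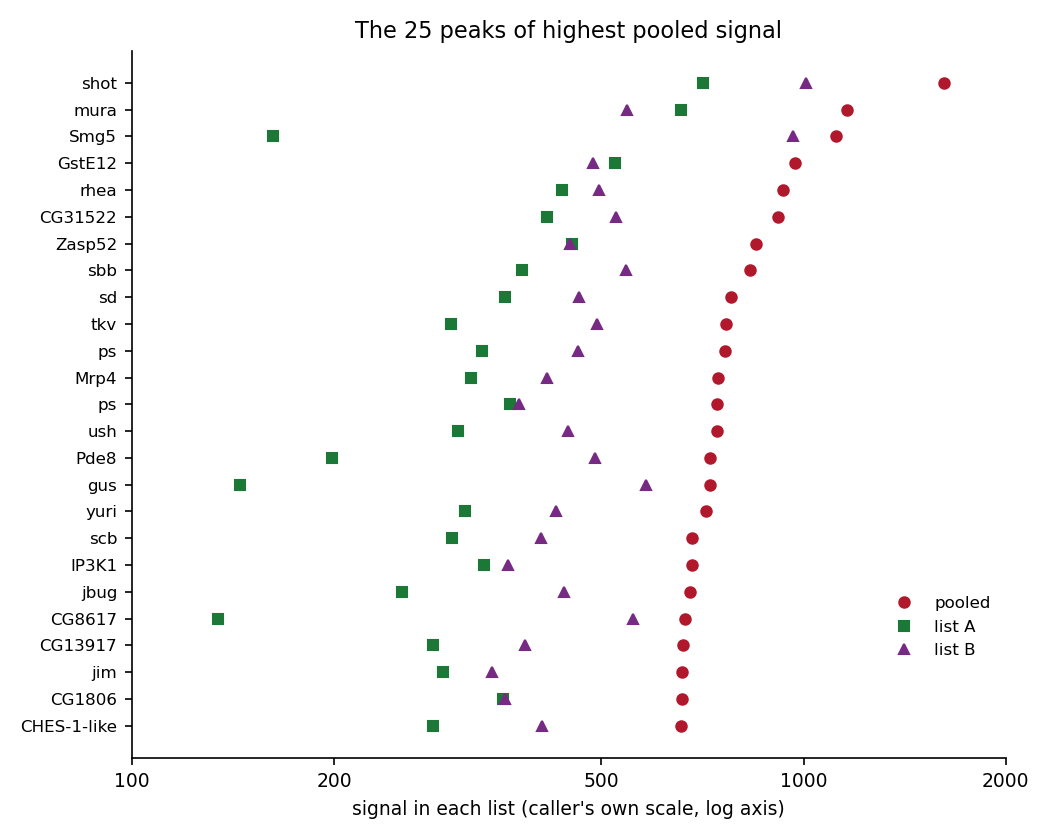
Signal of the 25 strongest promoter peaks of single genes in the pooled list (circles), list A (squares) and list B (triangles), on a logarithmic axis; the gene name is repeated where a gene has more than 1 peak, and signal is not normalised between lists. Smg5, gus and CG8617 stand apart, with list A signals of 162.2, 144.8 and 134.6 against list B signals of 963.9, 582.6 and 557.7.

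Signals of all 343 peaks ran from 183.4 to 1618, with a median of 274.0 and quartiles of 217.2 and 379.0. The 5 just inside the threshold were scrib (185.4), Dyro (185.1), CG5541 (184.8), Unc-115a (184.3) and fd96Cb (183.4). The 5 just outside were mam (183.4), Oatp74D (183.2), cana (183.2), miple2 (182.2) and wun (181.6). The threshold separates no distinct group of values at this point, and all 10 peaks lay among the best regions of both single lists. Arm 2L held 62 peaks, arm 2R held 69, arm 3L 74 and arm 3R 86. The X chromosome held 51, chromosome 4 held 1, at the homeodomain zinc finger gene zfh2, and Y held 0.

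Summits lay just upstream of the start site. The median position was -90 bp, with quartiles of -152.5 and -57 bp, and 196 of 343 summits (57.1%) fell between 150 and 40 bp upstream. Summits were upstream at 303 of the 343 peaks (88.3%, 95% Clopper-Pearson interval 84.5 to 91.5%) and at 614 of the 816 weaker promoter peaks (75.2%). The odds ratio was 2.49 (95% interval 1.73 to 3.59, two-sided Fisher's exact test, Benjamini-Hochberg adjusted p = 2.05e-06 over 18 tests). It was 5.08 with start sites within 250 bp and 1.69 with start sites within 1000 bp. With peaks chosen from list A or list B alone it was 2.23 and 3.80, and the call held under all 9 alternatives. Regions, not larvae, are the units of this and the following tests, so these p-values describe the lists and not the variation between animals.

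Summits of the weaker peaks lay at or just past the start site more often. Their median position was -66 bp with an upper quartile of -1 bp, and 88 of 816 (10.8%) had the summit 0 to 49 bp downstream. Among the 343 strongest peaks 4 did (1.17%), among them the peak of kay, which encodes Fos (274.5, summit at +4 bp). The bin from 100 to 51 bp upstream held 120 of the strongest peaks (35.0%) and 180 of the weaker ones (22.1%).

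**Figure D2:**
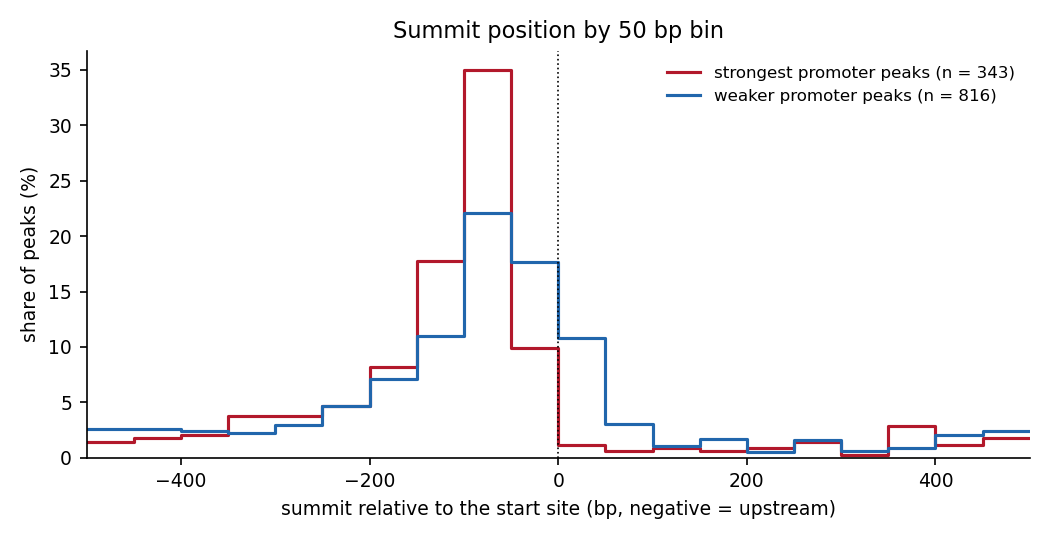
Position of the summit relative to the nearest coding start site, in bins of 50 bp, as the share of peaks in each group; negative values are upstream and the dotted line marks the start site. The strongest promoter peaks reach 35.0% in the bin from 100 to 51 bp upstream, and the weaker ones 22.1%, with a broader shoulder that runs to 49 bp downstream.

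The motif GAGAGAG, searched on both strands within 100 bp of the summit, occurred at 205 of the 343 strongest peaks (59.8%, 95% Clopper-Pearson interval 54.4 to 65.0%) and at 343 of the 816 weaker ones (95% interval 38.6 to 45.5%). The odds ratio was 2.05 (95% interval 1.58 to 2.65, two-sided Fisher's exact test, adjusted p = 7.02e-07). Of all 19276 windows from 200 bp upstream to coding start sites, 6.18% held it. The motif occurred 2 or more times, overlapping matches included, at 146 of the strongest peaks (42.6%) and at 187 of the weaker ones (22.9%). The median GC content of the windows was 50.7% and 50.2% in the 2 groups.

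The shorter GAGAG, which was added after the data had been seen and holds every GAGAGAG, occurred at 325 of the 343 strongest peaks (94.8%, 95% interval 91.8 to 96.9%) and at 626 of the 816 weaker ones (76.7%). With it the odds ratio rose to 5.48 (95% interval 3.32 to 9.05). It was present in 25.3% of all coding start-site windows. The median number of overlapping matches was 5 at the strongest peaks and 2 at the weaker ones. At peaks with a match, the nearest one lay a median of 5 bp from the summit of the strongest peaks and 14 bp from that of the weaker ones. A larger number of matches alone brings the nearest one closer, and the widths of the regions also differed between the groups. Matches of GAGAGAG lay a median of 99 bp upstream of the start site, and by strand 83 peaks had them only on the strand of the gene, 92 only on the other and 30 on both.

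Strong peaks elsewhere on the arms carried the same element. GAGAGAG occurred at 219 of these 330 peaks (66.4%), and the odds ratio of the single-gene promoter peaks against them was 0.753 (95% interval 0.550 to 1.03, two-sided Fisher's exact test, adjusted p = 0.477 over 12 tests). For GAGAGAG, the adjusted p-value of this test ran from 0.112 to 0.887 over the alternatives. With GAGAG the direction turned, with 94.8% against 89.7% and an odds ratio of 2.07 (95% interval 1.15 to 3.75). That difference did not pass either (two-sided Fisher's exact test, adjusted p = 0.121). The GA run was thus not shown to set single-gene promoters apart from other strong peaks.

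Of the other 11 motifs, none separated the strongest from the weaker promoter peaks. The DNA replication-related element TATCGATA, typical of housekeeping promoters, occurred at 2 of the 343 (0.583%) and at 11 of the 816 (1.35%), and in 6.20% of all coding start-site windows. TATAAA was found at 10.2% and 12.6%, against 33.6% of the start-site windows, which lie at a fixed distance from the start site and are not centred on summits. The Polycomb-associated Pho motif GCCATNTT was at 5.25% and 2.82% (odds ratio 1.91, 95% interval 1.02 to 3.59, two-sided Fisher's exact test, adjusted p = 0.194). Against strong peaks elsewhere, the initiator-like TCAGT was more frequent, at 140 of 343 (40.8%) and 84 of 330 (25.5%; odds ratio 2.02, 95% interval 1.45 to 2.80, two-sided Fisher's exact test, adjusted p = 0.000343). The initiator sits at start sites, which the position rule required, so this difference is not independent of the selection. The call was lost with the strongest 10% of peaks (odds ratio 1.76) and with start sites within 1000 bp (odds ratio 1.49).

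**Figure D3:**
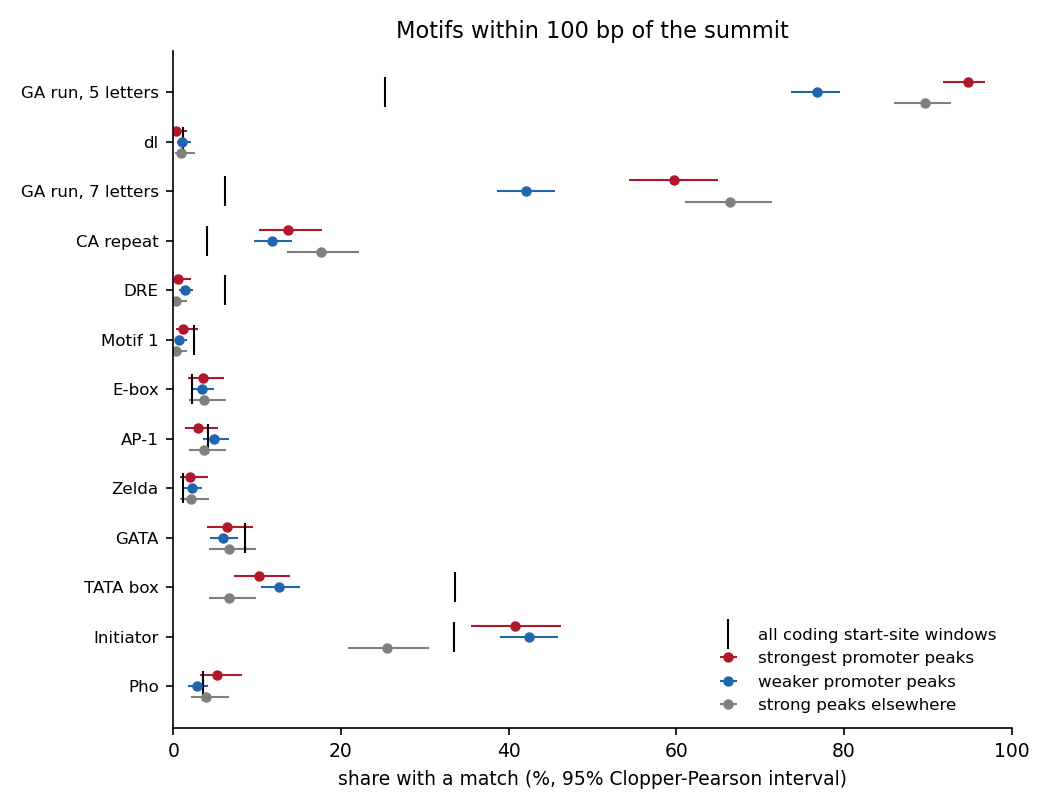
Share of peaks with each motif within 100 bp of the summit, in percent with 95% Clopper-Pearson intervals, for the 343 strongest promoter peaks, the 816 weaker ones and the 330 strong peaks elsewhere; black ticks give the share of all 19276 coding start-site windows. The GA runs stand apart, at 94.8% for GAGAG and 59.8% for GAGAGAG among the strongest promoter peaks, while the dl motif is at 0.292%.

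The dl consensus itself was close to absent. It matched within 100 bp of the summit at 1 of the 343 strongest peaks (0.292%, 95% Clopper-Pearson interval 0.00738 to 1.61%), at 9 of the 816 weaker ones (1.10%) and in 1.13% of the coding start-site windows. The odds ratio against the weaker peaks was 0.262 (95% interval 0.0331 to 2.08, two-sided Fisher's exact test, adjusted p = 0.568), and at these counts no difference was detectable in either direction. Partial sites were not searched.

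The single match lay at Inx3, which encodes an innexin of gap junctions (3R 28859248 to 28859359, 85 bp upstream of the start site). The signal there was 268.4 in the pooled list, 94.1 in list A and 182.0 in list B. The window of 101 bases around its summit (chr3R:28859249-28859349) is shown on the strand of the gene, with the dl match in capitals. A GA run in lower case lies to its right.
Inx3: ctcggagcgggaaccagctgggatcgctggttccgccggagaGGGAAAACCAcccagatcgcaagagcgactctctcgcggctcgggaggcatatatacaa

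Both single lists recovered most of the strongest promoter peaks. The summit lay in the 2718 best regions of list A and in those of list B for 327 of the 343 (95.3%, 95% Clopper-Pearson interval 92.5 to 97.3%), against a background of 58.3% over all 2690 arm peaks. The share was 48.0% for the weaker promoter peaks and 96.1% for the strong peaks elsewhere. The pooled signal that chose the peaks was called on the alignments behind both single lists, which builds in part of a high share, and no test was made. With the 1000 best regions of each list the share was 84.8%, which was not computed for the other groups. The 100 best of both lists held 29 of the 343 (8.45%), 21 of the 330 strong peaks elsewhere (6.36%) and 50 of all 2690 arm peaks (1.86%).

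For the 330 peaks with a summit in a region of both lists, signals ran from 18.7 to 709.0 in list A (median 126.8) and from 32.1 to 1008 in list B (median 160.4). The ranks in the lists had a Spearman correlation of 0.57 over these peaks. Each list was called on its own ChIP alignment, but the lists share a control. The peaks were also chosen by high signal in the pool of both alignments, which limits the range of values and affects the correlation. For 235 of them the ranks in A and B lay within a factor of 2 of each other.

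Ranks differed by a factor of 10 or more at 10 peaks, 8 of which ranked better in list B. Those were at Gadd45, a stress-response gene (signal 18.7 in A and 230.0 in B), Smg5, CG11601, CG8617, gus, CG5515, CG10555 and atos, named after their values were seen. The other 2 were at fax (158.9 in A and 32.1 in B) and CG13875 (148.5 in A and 47.1 in B). None of the 8 peaks favoured by list B held GAGAGAG, and 3 of them held GAGAG.

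The peaks without a GA run leaned towards list B. Of the 18 without GAGAG, 16 had a value in both lists, and 15 of these ranked better in B and 1 in A. Their ratio of B to A signal had a median of 3.49 and ran from 1.11 to 5.94. Of the 314 peaks with GAGAG and a value in both lists, 138 ranked better in B and 174 in A, with a median ratio of 1.25. The ratios are not normalised for the depth of the lists, and the grouping was made after the data had been seen, so the difference is a description of these libraries. The 18 included Smg5, both peaks of gus (725.2 and 479.6), CG8617, CG10555, CG4004 and Tango10, and 17 of their 18 summits were upstream, with a median position of -48.5 bp.

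**Figure D4:**
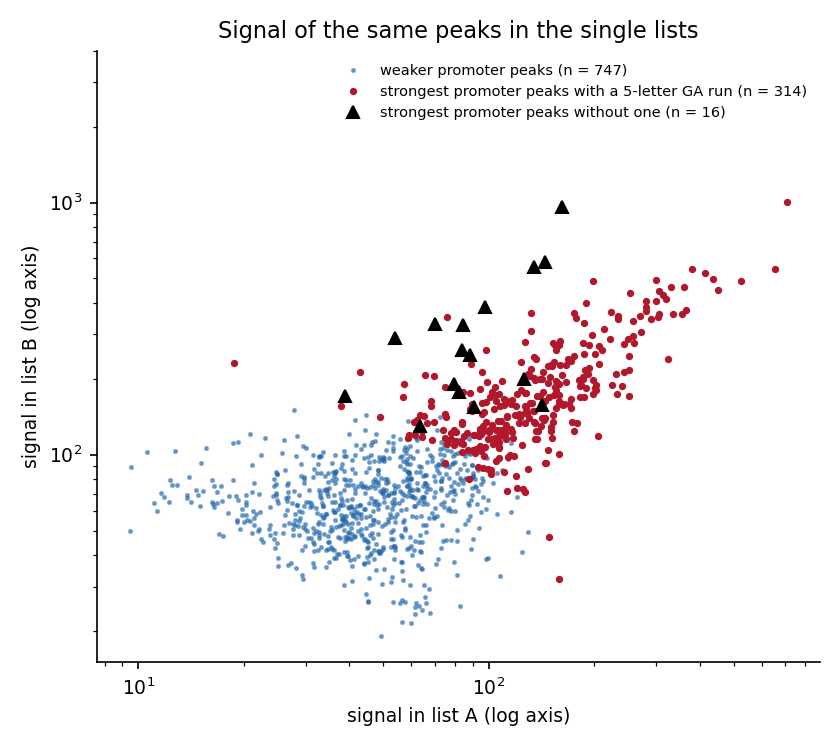
Signal of each promoter peak in list A and in list B on logarithmic axes, for the weaker peaks (small dots), the strongest peaks with GAGAG (large dots, 314) and the strongest peaks without it (triangles, 16). Of the triangles, 15 ranked better in list B than in list A, and their median ratio of B to A signal is 3.49.

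Of the 16 peaks that were not in the best regions of both lists, 9 were in those of B, 6 in those of A and 1 in neither. The strongest 10 of them were at stv, a co-chaperone gene (418.0), the profilin gene chic (381.9), the histone demethylase gene Kdm2 (310.3), MP1, a protease of melanization (307.2), mtgo (305.9), Gadd45 (294.6), CG3764 (258.5), dl itself (249.3 and 238.5) and wech (229.2). All 16 except those of mtgo, CG3764 and moody overlapped a region of any rank in the list that missed them. At stv a region of list A with signal 197.2 had its own summit 114 bp away, and at chic one with 172.7 lay 63 bp away. With any overlap of at least 1 bp as the criterion, 338 of the 343 (98.5%) were matched in both lists, and with 50% of both regions 66.2% were.

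The gene of the tagged protein was among the 310. Its 2 peaks lay at 2L 17449744 to 17449981, 490 bp downstream of a start site, and at 17450281 to 17450524, 39 bp upstream, with pooled signals of 249.3 and 238.5. The first overlapped regions with signals of 83.5 in list A and 175.5 in list B, the second ones with 143.6 and 145.8. The strain carries a further copy of dl sequence in the transgene, and whether that copy adds reads here was not tested.

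Roles of the genes were described with 20 lists, chosen with earlier results of these data known, by how many of the listed genes had a strongest promoter peak. Over all 13968 coding genes the share was 2.22% (310 genes), and over the 3197 genes with a pooled candidate region meeting the position rule it was 9.70%. Of the 310 genes, 111 were in at least 1 list and 199 in none, and 47 of the 310 are named only by a CG number. The lists together held 1083 genes, so the 111 put listed genes as a whole well above 2.22%. A list above 2.22% is therefore not by that alone raised among the listed genes. The genes were long, with a median of 12638 bp against 2165 bp over all coding genes, and had a median of 2 start sites against 1. Whether length or the number of start sites affects the shares was not tested.

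Regulators of the larval to pupal transition had the highest share. Of 30 genes of the ecdysone response, 9 had a peak (30.0%). The steroid hormone ecdysone drives this transition through the receptor encoded by EcR (432.4 pooled, 187.2 in A, 251.9 in B). Eip74EF, an ETS factor induced by the hormone, had 586.5, 233.4 and 356.4, and tai, a receptor coactivator, had 391.0, 201.6 and 189.1. E23, an ABC transporter that limits the hormone in cells, had 497.1, 213.5 and 316.3. The other 5 were ftz-f1, crol, Hr4, Hr38 and Blimp-1, at 185.6 to 264.2.

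Growth control followed, with 10 of 40 genes. Its strongest were sd, scyl, an inhibitor of TOR signalling (655.6), the amino acid transporter gene mnd (509.2) and the cap-binding factor gene eIF4E1 (295.3). At mnd the signal was 132.1 in list A and 363.4 in list B, whereas eIF4E1 had 175.0 and 123.9. Thor and foxo, which restrain growth through insulin and TOR signalling, had 263.2 and 198.1.

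Of 103 transcription factor genes, 24 had a peak (23.3%), led by sbb, sd, ush and bun, a TSC22 family gene (653.1 pooled, 305.0 in A, 360.6 in B). Of 48 chromatin genes, 5 did (10.4%), and these included the histone methyltransferase gene trx (411.1), Sin3A (333.2), the remodeller gene kis (228.6) and Su(z)2 (214.6), a Polycomb group gene. Most of the listed regulators in both groups had none.

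Signalling genes with a peak included receptors, kinases and regulators of small GTPases. Of 67 receptors and ligands, 10 had a peak (14.9%). These included the Dpp receptor genes tkv (765.5) and wit (465.9), the Hedgehog receptor gene ptc (525.6) and the Wingless receptor gene fz2 (379.9). Of 66 kinases and phosphatases 8 did (12.1%), with sgg, the fly GSK3 (425.6), the pseudokinase gene trbl (416.6), the polarity kinase gene par-1 (380.4) and puc, a phosphatase of JNK (292.0). Of 50 small GTPases and their regulators 6 did, with Rgl (371.2), RhoGAP18B (320.0), RhoL (297.4) and Rac2 (273.9).

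Cytoskeletal and adhesion genes had peaks at 11 of 73 (15.1%). Below shot, rhea and Zasp52 stood jar, which encodes myosin VI (475.7 pooled, 221.7 in A, 287.5 in B). RNA regulators had them at 8 of 61 (13.1%), with Smg5, ps and the translational repressor genes pum (380.5) and brat (283.7). Neuronal genes had them at 5 of 60 (8.33%), with Ten-m, a teneurin (374.0), the RNA-binding protein gene elav (278.1), the cyclic AMP phosphodiesterase gene dnc (267.2) and moody, a receptor of the blood-brain barrier (216.5). Muscle genes had them at 2 of 28 (7.14%), Zasp52 and the nesprin gene Msp300 (464.9).

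Genes of innate immunity, in which Dorsal acts, had peaks at 6 of 61 (9.84%). These were genes of the signalling chain and of melanization. They included MP1 (307.2 pooled), spz, which encodes the Toll ligand (295.1 pooled, 88.9 in A, 228.6 in B), 18w, a Toll family receptor (252.7, 110.5 and 125.2), and dl. Dif, the NF-kB gene next to dl, had 233.1, 106.7 and 118.9, and cact, which encodes the inhibitor that retains Dorsal, had 199.2, 79.6 and 109.5. Among the 22 immunity genes with a candidate region the share was 27.3%, beside 9.70% over all genes with one. Most of the other lists also lay above 9.70% by this measure, mitochondria at 27.3% and muscle and membrane traffic at 16.7% among them. A share above 9.70% therefore does not set immunity genes apart from other listed genes.

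Metabolic, stress and transport genes were also represented. Lipid and membrane metabolism had 5 of 52 (9.62%), with CG31522, the phosphatidate phosphatase gene Lpin (352.4), Hnf4 (334.8) and the lipophorin receptor gene LpR2 (235.3). Detoxification and stress had 5 of 56 (8.93%), with GstE12, stv, Thor and cnc, the fly Nrf factor (244.8). Mitochondria and oxidative metabolism had 3 of 47 (6.38%): sesB, an ADP/ATP carrier (413.0), Hex-A (286.5) and Men (236.8). Transporters and ion channels had 5 of 86 (5.81%), with mnd, E23, nrv1 and Tret1-1.

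Shares near the 2.22% of all coding genes were those of membrane traffic, at 2 of 63 (3.17%, Vha16-1 and Chc), and of ubiquitin and protein turnover, at 2 of 66 (3.03%, mura among them). None of 46 cuticle genes (95% Clopper-Pearson interval 0 to 7.71%) and none of 42 genes of midgut digestion (0 to 8.41%) had a peak, and both intervals hold 2.22%.

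The order of the lists changed when shares were taken over the genes with a candidate region, for which the share over all genes is 9.70%. The ecdysone response (47.4% of 19 genes) and growth control (43.5% of 23) stayed first. Chromatin genes came next (31.2% of 16), followed by cytoskeletal genes (28.9% of 38) and transcription factors (28.9% of 83). Mitochondria (27.3% of 11) and lipid metabolism (23.8% of 21) then stood above receptors and ligands (22.7% of 44) and kinases and phosphatases (21.6% of 37). Muscle and membrane traffic each had 16.7% of 12 genes, neuronal genes 14.7% of 34, transporters 12.8% of 39, and ubiquitin and protein turnover 2 of 25 genes. Units in these counts are genes, several genes stand in more than 1 list, and no list was tested.

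**Figure D5:**
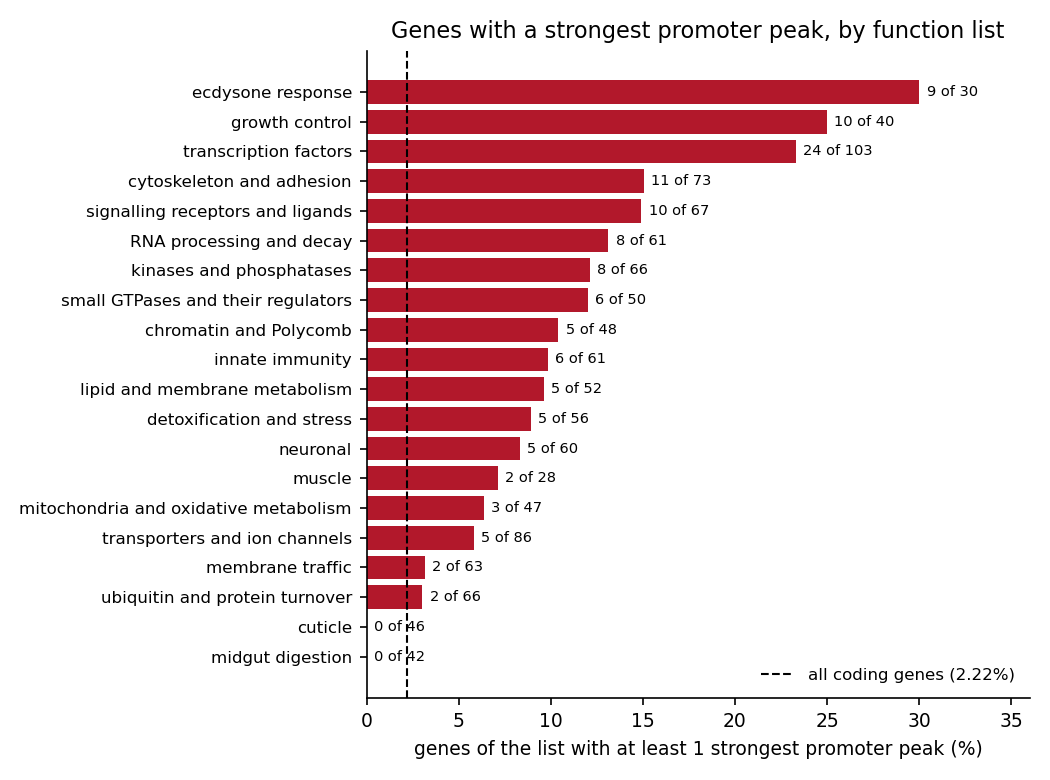
Share of the genes of each of 20 function lists with at least 1 strongest promoter peak, with the counts beside the bars and the share over all coding genes (2.22%) as a dashed line. The ecdysone response (9 of 30), growth control (10 of 40) and transcription factors (24 of 103) have the longest bars, and cuticle and midgut digestion have 0.

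Many of the genes carried more than 1 peak. Among the 310 genes, 29 had 2 or more of the strongest promoter peaks, at 1 or more of their start sites, and ps, CHES-1-like, Tlk and Pdk1 had 3. The 3 summits at ps spanned 17277 bp, with signals of 377.0 to 763.6, and those at Tlk, a chromatin-associated kinase, 30882 bp, with 301.0 to 342.4. No pair of windows used for the motif search overlapped. A further thresholded peak with its summit inside the same gene was found for 183 of the 343 (53.4%) and for 343 of the 816 weaker peaks (odds ratio 1.58, 95% interval 1.22 to 2.03, two-sided Fisher's exact test, adjusted p = 0.00286). That call was lost when peaks were chosen from list B alone (odds ratio 1.36).

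Peaks at genes with 2 or more annotated start sites made up 260 of the 343 (75.8%) and 555 of the 816 (68.0%). A gene with several peaks is counted once per peak here, so the units are not independent. The odds ratio was 1.47 (95% interval 1.10 to 1.96, two-sided Fisher's exact test, adjusted p = 0.0409), and the call was lost under 6 of 9 alternatives, both single lists among them. Peaks at genes longer than the median coding gene were 326 of the 343 and 757 of the 816, a difference that did not pass (odds ratio 1.49, 95% interval 0.858 to 2.60, two-sided Fisher's exact test, adjusted p = 0.496). The X chromosome held 14.9% and 15.7%, and a non-coding start site within 1000 bp was found at 10.8% and 8.82%. Of the 18 tests against the weaker promoter peaks, 4 passed, those of the GA run, the upstream summit, a further peak in the gene and several start sites.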

How the data were processed

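ChIP-seq of dl-GFP was deposited as region lists, in which column 7 is a signal that the authors' caller gave each region and the deposited −log10 q-value was read only for its maximum, which all 343 peaks share. The sources used here name no aligner, caller or threshold of irreproducibility, and the files hold no read counts, so depth is unknown and intervals cover the counting of regions only. Lists in dm3 and the control were not used here.

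Summits were the start plus the summit offset, 1-based, in dm6. Coding genes, start sites and exons came from Ensembl release 115 (BDGP 6.54), and sequence from the release 6 assembly. Motifs were matched in 201 bp around the summit on both strands. They were the dl consensus in 2 lengths, the GA run (GAGAGAG), the CA repeat (CACACACA), the replication-related element (TATCGATA), core promoter Motif 1 (GGTCACACT), the E-box (CACGTG), the AP-1 site (TGANTCA), the Zelda site (CAGGTAG), the GATA site (AGATAAG and its variant TGATAAG), the TATA box (TATAAA), the initiator (TCAGT) and the Pho site (GCCATNTT). Differences were tested by two-sided Fisher's exact tests, adjusted by Benjamini and Hochberg over 18 tests (12 motifs and 6 features) or 12 tests with a threshold of 0.05, with Woolf 95% intervals of odds ratios. Python 3.11.15, pandas 2.3.3 and scipy 1.17.1 were used, and the test code was checked on simulated data. Of 1159 listed gene symbols, 1083 were found.

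The members and lists were chosen with earlier results of these data known. Genes named are the 25 of highest signal, 5 on each side of the threshold, up to 4 per list, up to 10 outside the best of both single lists, those with a dl match, and those said to be named later, which include the other genes of the ecdysone, growth and immunity lists and those with several peaks. Alternatives were other windows, thresholds, overlaps and motif lengths, 1 peak per gene, and each single list alone.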

Additional observations from a re-analysis of the deposited data

How the results depend on the processing

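No paired analysis was possible because there was 1 group. Of 136 values under alternatives, 117 kept their direction and side of the threshold or stayed near the main value. The 117 include tests that passed neither in the main setting nor under the alternative. Among these were all 11 alternatives of the dl motif and all 11 of the Pho motif against the weaker peaks. The GAGAGAG difference from the weaker promoter peaks passed under all 11 alternatives that kept this motif (odds ratio 1.95 to 2.72) and with GAGAG in its place (5.48) and that of the upstream summit under all 9 (1.69 to 5.08). With the strongest 10% there were 136 peaks, several start sites had an odds ratio of 1.20 and the initiator 1.76, and 0 tests against strong peaks elsewhere passed. With start sites within 1000 bp these were 1.38, 1.49 and 0. Several start sites were also lost with the highest 25% taken over single-gene promoter peaks (1.38) and with no other start site within 2000 bp (1.47), and adjusted p-values over the alternatives ran from 0.000717 to 0.695. In lists A and B alone, that odds ratio was 1.36 to 1.37, and that of a further peak in the gene 1.36 (B) to 1.63 (A). From 2 (B) to 3 (A) tests against the weaker peaks passed, and from 1 (A) to 2 (B) against strong peaks elsewhere. With 1 peak per gene, the strongest being kept, a further peak in the gene had an odds ratio of 2.45 and several start sites 1.76. Genes with several peaks had more chances for their strongest to reach the threshold, which can build in part of these values. The lowest adjusted p-value of several start sites, 0.000717 (two-sided Fisher's exact test), came from this alternative. With GAGAG, chosen after seeing the data, the odds ratio against strong peaks elsewhere was 2.07 in place of 0.753. The share of peaks in both lists was 98.5% with 1 bp of overlap, 66.2% with 50% of both regions and 84.8% with 1000 best regions. The background of gene lists was 9.70% among genes with a candidate. The causes were not tested. Read depth is unknown, with 2 replicates.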

Other observations

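Among the strongest promoter peaks, 40 had a summit downstream of the start site. Some of their motif shares are described here after the values were seen, and were not tested. These peaks lay a median of 352 bp downstream, with signals of 184.3 to 1161 (median 242.9). GAGAGAG was found at 28 of them (70.0%, 95% Clopper-Pearson interval 53.5 to 83.4%) and at 177 of the 303 upstream peaks (58.4%, 52.6 to 64.0%). These intervals overlap. The repeat CACACACA was at 15 of the 40 (37.5%) and at 32 of the 303 (10.6%), and TCAGT at 12 (30.0%) and 128 (42.2%). The strongest of the 40 was at mura, and others were at trx (384 bp downstream), kibra, a regulator of the Hippo pathway (382 bp), and mtd (347 bp).

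Unbroken runs of alternating G and A of at least 20 bp were found at 12 of the 343 peaks. The longest were 33 bp at CG12730 (signal 295.8), 31 bp at mtd (380.6), 30 bp at Cad86C, a cadherin gene (378.5), 29 bp at Pdk1 (201.1) and 28 bp at Tlk (301.0). None of these was among the strongest 25. Longer runs occurred in the other groups, up to 35 bp at the weaker promoter peaks and 41 bp at the strong peaks elsewhere. Runs of at least 20 bp were not counted there. By signal, GAGAGAG was found at 72 of the 114 strongest (63.2%), at 72 of the next 114 (63.2%) and at 61 of the remaining ones (53.0%).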
